A study of Mus musculus with 4 samples.

Results

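The nuclear genes for the subunits of oxidative phosphorylation were described complex by complex in N2a cells, a mouse neuroblastoma line, that had received an siRNA against Men1. Men1 encodes menin, a chromatin-associated scaffold protein. All array targets whose annotated gene name began with the stem of a subunit family were taken (Nduf with a letter a, b, c, s or v and a number, Sdha to Sdhd, Uqcr, Cyc1, Cycs, Cox4 to Cox8, or Atp5). This rule found 127 of 44170 targets and 86 of 24172 genes. Of the 86 genes, 82 encode a subunit or a subunit isoform: 34 of complex I, 4 of complex II, 8 of complex III, 20 of complex IV, 15 of complex V, and the carrier cytochrome c. The other 4 matched by name alone and entered no complex: Cox4nb (now Emc8), Atp5s (now Dmac2l), Atp5sl (now Dmac2) and the assembly factor Sdhaf2. The subunits that the mitochondrial genome encodes carry other names, were not matched by the rule and are not analysed here.

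There were 2 arrays of cells with Men1 siRNA and 2 arrays of cells with a scramble siRNA, which has no intended target. By the labels, all samples were N2a cells in the same medium with serum. The labels do not state whether replicates were separate cultures. The p-values therefore reflect array-to-array spread only, possibly of technical origin. With 2 arrays a group, the smallest two-sided p of an exact permutation test is 0.33, and the tests are those of a limma model fitted across all genes.

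Oxidative phosphorylation takes electrons from NADH at complex I and from succinate at complex II, passes them through complex III and cytochrome c to oxygen at complex IV, and uses the resulting proton gradient at complex V to make ATP. Complex I pairs a core that carries the flavin and the iron-sulphur clusters with a shell of accessory subunits. Complex IV has several subunits that exist as isoforms, one made in most tissues and another restricted to muscle, testis or lung or raised in low oxygen. Nerve cells draw most of their ATP from this pathway.

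Intensities are the authors' deposited values on a linear scale, and each change is a difference of log2 intensities, Men1 siRNA minus scramble siRNA, with its moderated standard error (SE). Where a gene had several targets, the brightest stood for the gene. Genes at an intensity of 100 or more were treated as clearly above background. The random control probes read 48.1 and 52.3 on the Men1 siRNA arrays and 45.5 and 42.8 on the scramble siRNA arrays. The subunit genes were among the bright genes of the arrays. Their median intensity was 3209 and 2769.8 on the Men1 siRNA arrays, against 2601 and 3370.4 on the scramble siRNA arrays, where the median over all targets was 146, 147, 146 and 151 in the same order. Of the 82 subunit genes, 79 reached 100 on all 4 arrays.

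The targeted gene was read first. Its brighter target gave 2764 and 4109 on the Men1 siRNA arrays, against 6985 and 6222 on the scramble siRNA arrays, a log2 change of -0.97 ± 0.36 (limma, SE, adjusted p = 0.336 over all targets). The groups did not overlap. The other Men1 target gave 2989 and 3802 with Men1 siRNA, against 3843 and 3824 with scramble siRNA, a log2 change of -0.19. The direction at both targets was that of the labels, and neither passed the threshold.

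Markers of several cell types differed between the groups, although the labels name only N2a cells. Fibroblast markers summed to 27441 and 33830 with Men1 siRNA, against 81068 and 76426 with scramble siRNA. Of 16 measured, 15 had a negative change and 4, Col6a2, Col1a1, Col6a1 and Col1a2, passed the threshold. The remaining one, Acta2, had a positive change of 1.61 ± 0.42 without overlap. Over all genes 0.352% passed as lower, 0.0372% passed as higher and 54.5% had a positive change. Immune and endothelial markers summed to 5687 and 7329 with Men1 siRNA, against 18897 and 12430 with scramble siRNA (15 measured, 11 negative, 0 past the threshold). The immune markers went both ways. Ptprc, Itgam, Cd3e and Cd79a had positive changes from 0.12 to 0.52, and Cd14, Cd68, Csf1r, Lyz2 and Aif1 had negative ones. Adipocyte markers summed to 11007 and 7640.2 with Men1 siRNA, against 1396 and 1225 with scramble siRNA. All 11 measured had a positive change and 2, Fabp4 and Car3, passed the threshold. Neuron markers summed to 151768 and 155844 with Men1 siRNA, against 102065 and 122035 with scramble siRNA. All 13 measured were positive, 0 passed, and none lay under 100 on all arrays. Erythroid markers summed to 33643 and 40169 with Men1 siRNA, against 25825 and 13404 with scramble siRNA (7 measured, 6 positive, 0 past). Glial markers summed to 23453 and 18487 with Men1 siRNA, against 14980.4 and 19027 with scramble siRNA (13 measured, 10 positive, 0 past). The glial sums overlapped between the groups, and single glial markers went both ways, with Sox10 at -1.16 and Olig2 at 1.12. Some listed markers read below the random control probes on some arrays. Lep, an adipocyte marker, gave 50.6 and 180 with Men1 siRNA, against 37.6 and 26.9 with scramble siRNA. The part these differences play in the values of the subunit genes was not tested, and in bulk samples fewer cells of a type and less RNA per cell cannot be told apart.

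The promoters of these genes carried several short sequence words at other shares than promoters at large. Transcription of respiratory subunits is known to draw on nuclear respiratory factor 1 (NRF1), on nuclear respiratory factor 2 (GABP, of the ETS family), on YY1 and on the estrogen-related receptors (ERR). RefSeq promoter windows on build GRCm38.p6, from 250 bases before to 50 bases after the start of transcription, matched 66 of the 82 subunit genes with 71 windows. The 6 words searched were GCGCANGCG for NRF1, CCGGAAG for ETS factors, AAGATGGCG for YY1, TCAAGGTCA for ERR and ACGTG for hypoxia-inducible factors (HIF), all on both strands, and TATAAA for the TATA box on the sense strand. The words and the windows printed here were chosen with results of these data known, and no subunit window held different words that overlapped. The NRF1 word stood in 22 of 71 subunit windows (31.0%), against 8.58% of the 21263 windows of protein-coding genes and 6.25% of all 32851 windows. The ETS word stood in 15 (21.1%), against 11.6% of protein-coding and 8.86% of all windows. The YY1 word stood in 7 (9.86%), against 1.83% of protein-coding and 1.40% of all windows. The ERR word stood in 2 (2.82%), against 0.334% and 0.423%. The HIF word was closer to its background, in 19 subunit windows (26.8%) against 20.9% and 19.6%, and the TATA word stood in 3 (4.23%) against 8.26% and 8.32%. The windows below are given 5′ to 3′ on the strand of the gene, with each of these words in capitals and the rest in lower case. Cox7b (chrX:106015450-106015749, plus strand) is shown because it had the smallest p of all members, and its window held none of the 6 words. Ndufs3 (chr2:90904672-90904971, minus strand) is shown for its pair of ETS words and as the subunit of complex I with the largest change over all 4 arrays. Sdhd (chr9:50603800-50604099, minus strand) is shown because it held the NRF1, ETS and ERR words together. Cox6a1 (chr5:115348909-115349208, minus strand), from complex IV, is shown for its NRF1 words, of which one reads on both strands, and its ETS word. Ndufs6 (chr13:73328433-73328732, minus strand) is shown for the NRF1 and YY1 words together and because its array targets disagreed.
Cox7b: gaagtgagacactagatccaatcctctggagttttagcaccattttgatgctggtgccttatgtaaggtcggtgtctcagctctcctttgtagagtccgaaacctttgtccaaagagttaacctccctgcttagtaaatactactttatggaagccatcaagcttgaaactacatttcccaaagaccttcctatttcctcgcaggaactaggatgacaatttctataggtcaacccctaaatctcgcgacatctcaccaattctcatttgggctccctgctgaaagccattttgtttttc
Ndufs3: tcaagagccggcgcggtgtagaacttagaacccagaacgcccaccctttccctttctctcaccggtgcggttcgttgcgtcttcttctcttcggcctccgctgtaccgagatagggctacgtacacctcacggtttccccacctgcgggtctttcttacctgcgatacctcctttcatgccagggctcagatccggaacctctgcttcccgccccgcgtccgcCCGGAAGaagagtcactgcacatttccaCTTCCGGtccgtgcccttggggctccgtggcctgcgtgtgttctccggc
Sdhd: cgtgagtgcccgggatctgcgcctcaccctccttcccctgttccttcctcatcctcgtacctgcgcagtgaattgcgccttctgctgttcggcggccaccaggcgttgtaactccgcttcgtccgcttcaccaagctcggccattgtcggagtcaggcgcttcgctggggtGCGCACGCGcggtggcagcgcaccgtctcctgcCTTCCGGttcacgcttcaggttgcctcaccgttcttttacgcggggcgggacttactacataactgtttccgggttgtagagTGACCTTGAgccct
Cox6a1: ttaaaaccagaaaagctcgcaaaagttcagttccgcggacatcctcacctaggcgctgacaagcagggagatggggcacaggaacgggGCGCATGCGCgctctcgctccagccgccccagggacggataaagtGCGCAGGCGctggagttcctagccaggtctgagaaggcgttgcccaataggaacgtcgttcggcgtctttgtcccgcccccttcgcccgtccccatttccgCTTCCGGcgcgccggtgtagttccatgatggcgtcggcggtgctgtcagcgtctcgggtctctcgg
Ndufs6: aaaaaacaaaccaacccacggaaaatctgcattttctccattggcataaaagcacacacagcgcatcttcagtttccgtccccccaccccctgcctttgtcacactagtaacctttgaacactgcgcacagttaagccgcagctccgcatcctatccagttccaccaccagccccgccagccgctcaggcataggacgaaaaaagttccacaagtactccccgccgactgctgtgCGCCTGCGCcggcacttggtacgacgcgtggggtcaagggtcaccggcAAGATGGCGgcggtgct

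**Figure D1:**
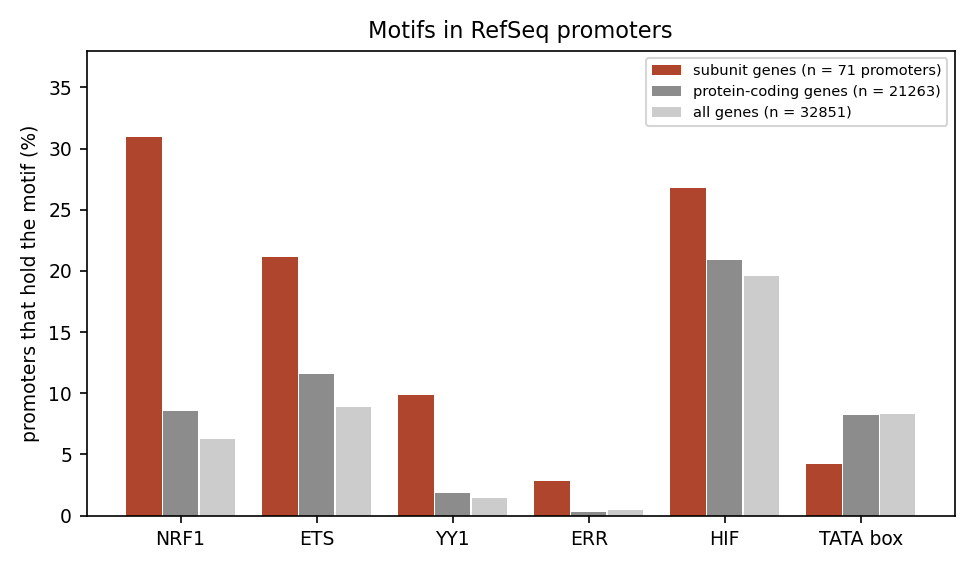
Share of promoter windows, in percent, that hold each sequence word, for the 71 windows of subunit genes, the 21263 windows of protein-coding genes and all 32851 windows. The NRF1 word stands in 31.0% of the subunit windows, 8.58% of protein-coding windows and 6.25% of all windows.

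The words were spread unevenly over the complexes. The NRF1 word stood in 8 of the 30 complex I genes with a window and in 7 of the 14 of complex V, but in 1 of the 14 of complex IV. The YY1 word was found in 5 genes of complex I and 2 of complex V and in none with a window of the other complexes. All 15 genes with the ETS word had a positive change, from 0.05 for Atp5j, a stalk subunit of ATP synthase, to 0.89 for Ndufs3, with a median of 0.27. Of the 51 genes with a window and no ETS word, 30 were positive, with a median of 0.10. Without scramble siRNA replicate 1, 9 of the 15 genes with the word were positive (median 0.08), against 23 of the 51 without it (-0.07). The second targets of Atp5h and Uqcrh, which hold the word, had negative changes of -0.69 and -0.29. The same split was made for the NRF1, YY1, ERR and HIF words, and with all arrays ETS had the highest median of the 5. With the NRF1 word 16 of 21 genes were positive (median 0.15), against 29 of 45 without it (0.12). With the HIF word 12 of 18 were positive (0.08), against 33 of 48 without it (0.15). With the YY1 word 4 of 7 were positive (0.03), and with the ERR word both genes were (0.08). Over all genes with a window the positive share was not higher with the ETS word, since 50.1% of 2223 genes with it were positive, against 54.4% of 14018 genes without it. These counts come from a search made with the data known and carry no test, and a word in a window is not shown to be a bound site.

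No subunit gene of any complex passed the threshold, and the smallest Benjamini-Hochberg adjusted p of the limma model was 0.202, for the complex IV subunit Cox7b. Across all genes 94 of 24172 passed (0.389%), 9 higher (0.0372%) and 85 lower (0.352%). Target by target, 0 of 127 members passed, beside 150 of 44170 targets (0.34%). At an unadjusted p under 0.05 there were 4 member genes of 86, 2 higher and 2 lower, where 14.2% of all genes met that mark, 6.47% higher and 7.74% lower. All 4 belonged to complex IV: Cox7b and Cox6a2 were higher and Cox4i2 and Ndufa4l2 lower with Men1 siRNA. The groups did not overlap in 36 of 86 member genes, against 47.5% of all genes. In 26 of them the Men1 siRNA arrays were the higher ones (30.2% of members, against 25.8% of all genes), and in 10 the lower ones (11.6%, against 21.7%). Among genes at 100 or more on all arrays the backgrounds were 54.6% in either direction, 29.2% higher and 25.4% lower. With a prior that follows intensity, 1 member passed, Cox7b, beside 2.94% of all genes in either direction and 0.509% higher. With the filter on dim genes (2.33% of genes past) 0 of the 84 members tested passed, and in the value table (3.32%) 0 of 83. With 2 arrays a group, missing the threshold does not show that a gene did not differ.

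Arrays of one group often differed by more than the change between the groups. Of the 82 subunit genes, 53 had a positive change (64.6%, against 54.5% of all genes), with a median of 0.12, against 0.06 over all genes. Without scramble siRNA replicate 1, 38 were positive, with a median of -0.05. Replicate 1 of scramble siRNA lay below replicate 2 for 67 of the 82 (81.7%, against 55.4% of all genes), by a median of 0.33 on the log2 scale. Replicate 1 of Men1 siRNA lay above replicate 2 for 62 of 82 (75.6%, against 50.3%). For 51 of the 82 genes the gap between the 2 scramble siRNA arrays alone exceeded the change between the groups, as it did for 48.7% of all genes. In the plot of medians by array, the Men1 siRNA arrays lay above both scramble siRNA arrays for complexes II, III and IV. For complexes I and V the second scramble siRNA array lay between or above them.

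**Figure D2:**
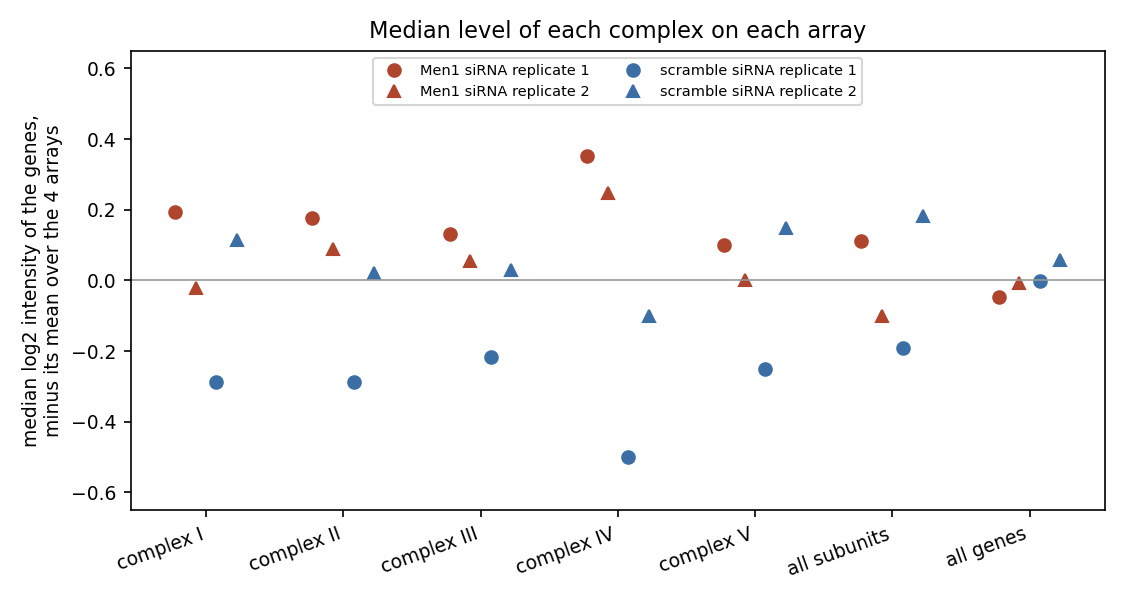
Median log2 intensity of the subunit genes of each complex, of all subunits and of all genes on each of the 4 arrays, minus the mean of the 4 medians. The first scramble siRNA array is lowest in every complex, and all genes together stay close to 0.

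Changes ranged more widely in complex IV than elsewhere. They ran from -0.61 to 0.89 in complex I, from -0.35 to 0.79 in complex II, from -0.19 to 0.46 in complex III, from -1.26 to 1.23 in complex IV and from -0.42 to 0.50 in complex V. Among all genes 6.30% had a change above 1 and 8.29% a change under -1. Of the 82 subunit genes 3 and 2 did, all of complex IV. Among these, Cox4i2, Ndufa4l2, Cox6a2 and Cox8b are restricted isoforms of low intensity, and Cox7b is widely expressed. The widely expressed subunits of complex IV ran from -0.65 to 1.23, and the highest after Cox7b was Cox5b at 0.48.

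**Figure D3:**
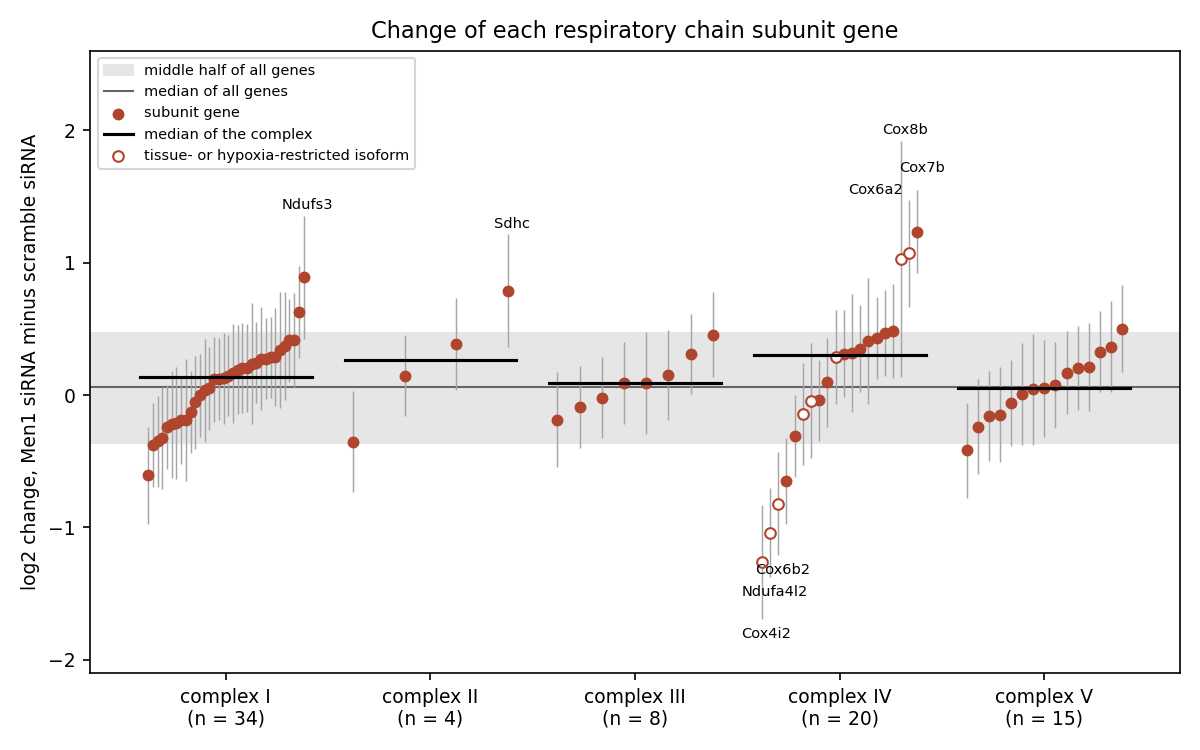
Log2 change of each subunit gene (Men1 siRNA minus scramble siRNA, points) with its SE (lines), sorted within each complex, with the median of the complex and the middle range of all genes (lower to upper quartile, grey, -0.36 to 0.47). Open points are restricted isoforms. Only complex IV has points beyond 1 in either direction. The point of Cox8b rests on 3 arrays under 100.

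Complex I, the NADH dehydrogenase, had a median change of 0.14 over 34 genes, 22 of them positive. In 8 genes the Men1 siRNA arrays lay above both scramble siRNA arrays and in 4 below, beside 25.8% and 21.7% of all genes. The array medians of its genes varied between replicates with an SD of 0.23, and the median change was smaller than this SD. For every complex this SD is of array medians, while the change is a median over genes, so they are unlike measures. The median change was -0.04 without scramble siRNA replicate 1 and -0.01 without Men1 siRNA replicate 1. The 7 core subunits, which hold the redox groups and the quinone site, had a median of 0.27 with 6 positive, and the 27 accessory subunits had a median of 0.12 with 16 positive. These medians were 0.06 for the core and -0.06 for the accessory subunits without scramble siRNA replicate 1. Ndufs3, a core subunit of the arm that faces the matrix (target at chr2:90734792-90744832 on MM9, the span of its transcript), gave 2884 and 2349.5 with Men1 siRNA, against 945 and 2089 with scramble siRNA. The groups did not overlap, but the first scramble siRNA array alone lay far below the rest. Its log2 change was 0.89 ± 0.47 (limma adjusted p = 0.449), the largest of complex I over all 4 arrays. It was 0.32 without scramble siRNA replicate 1, below Ndufa5 at 0.36 and Ndufa1 at 0.34. Several negative changes were then larger in size, among them Ndufa8 at -0.95 and Ndufb2 at -0.65. Ndufv2, which carries an iron-sulphur cluster next to the flavin subunit, gave 4046 and 3885 with Men1 siRNA, against 2715 and 3263 with scramble siRNA, a log2 change of 0.41 ± 0.31 (adjusted p = 0.595). Its arrays did not overlap. The core subunits Ndufs1, Ndufs7, Ndufs8 and Ndufv1 had changes from 0.14 to 0.34.

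Among the accessory subunits of complex I, Ndufa1, a small membrane subunit encoded on the X chromosome, gave 959.9 and 893 with Men1 siRNA, against 492 and 732 with scramble siRNA, a log2 change of 0.63 ± 0.35 (limma adjusted p = 0.476). Ndufa8 gave 2341 and 2104 with Men1 siRNA, against 2662 and 4292 with scramble siRNA, a change of -0.61 ± 0.37 (adjusted p = 0.51). For both genes the groups did not overlap, in opposite directions. Ndufs6, an accessory subunit that binds zinc, disagreed between its targets, which share nearly one span (chr13:73457323-73465903 on MM9). The brighter gave 1772 and 1013 with Men1 siRNA, against 1732 and 1628 with scramble siRNA, a change of -0.33. The dimmer gave 209 and 442 with Men1 siRNA, against 91.6 and 173 with scramble siRNA, a change of 1.27 ± 0.52 at an unadjusted p of 0.0491 (limma adjusted p = 0.367). Its groups did not overlap, and 1 scramble siRNA array was under 100. The brighter target of Ndufa13, also known as GRIM-19, gave 1986 and 2454 with Men1 siRNA, against 2232 and 2189.7 with scramble siRNA, and overlapped between groups. Its other target was under 100 on all 4 arrays, at 77.5 and 98.6 with Men1 siRNA and 40.5 and 42.2 with scramble siRNA, so no fold is given. The remaining 23 accessory genes had changes from -0.35 for Ndufc2 to 0.42 for Ndufa3. In 4 of these, Ndufa3, Ndufb4, Ndufb10 and Ndufb11, both Men1 siRNA arrays were above both scramble siRNA arrays, and in Ndufa12 and Ndufb8 both were below. Genes named as copies of accessory subunits are also on the array. Ndufa11b (change 0.79), Ndufb4c (0.37), Ndufs5-ps (0.59) and Ndufs6b (0.61) all had positive changes, and probes of Ndufa11, Ndufb4, Ndufs5 and Ndufs6 may share their signal, which leaves the values of these 4 genes uncertain.

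Complex II, succinate dehydrogenase, which also serves the citric acid cycle, had a median change of 0.27 over its 4 genes. In 3 of them the change was positive and the groups did not overlap, as in 25.8% of all genes. The SD of its array medians between replicates was 0.16. Sdha, the flavin subunit that oxidises succinate, was bright, at 26762 and 16295 with Men1 siRNA, against 23726 and 29924 with scramble siRNA. The groups overlapped, at a change of -0.35 ± 0.38. Sdhb, the iron-sulphur subunit, gave 4328 and 3569.7 with Men1 siRNA, against 2539.6 and 3564 with scramble siRNA, a change of 0.39 ± 0.35 (limma adjusted p = 0.655). The second array of each group differed by only a few units, so the groups just failed to overlap. Its other target had a change of 0.62. Sdhc, a membrane anchor (target at chr1:173059294-173080715 on MM9), gave 1556 and 1122 with Men1 siRNA, against 564 and 1036 with scramble siRNA, a change of 0.79 ± 0.42 (adjusted p = 0.459). As with Ndufs3, the first scramble siRNA array stood low, and a dimmer Sdhc target had a change of 0.19 with overlapping groups. Sdhd, the other anchor, gave 4641 and 4990.0 with Men1 siRNA, against 4163 and 4543 with scramble siRNA, a change of 0.15 ± 0.31.

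Complex III, the cytochrome bc1 complex, had a median change of 0.09 over 8 genes, 5 positive, beside an SD of 0.13 between replicates. Without scramble siRNA replicate 1 the median was -0.05. All 8 genes were lower on scramble siRNA replicate 1 than on replicate 2. Uqcrfs1, the Rieske iron-sulphur protein, gave 3921 and 4743 with Men1 siRNA, against 2878 and 3434 with scramble siRNA, a change of 0.46 ± 0.32 (limma adjusted p = 0.568). Uqcrq, a small subunit beside cytochrome b, gave 4428 and 4075 with Men1 siRNA, against 3358 and 3496 with scramble siRNA, a change of 0.31 ± 0.30 (adjusted p = 0.682). These were the 2 genes of the complex whose groups did not overlap, both higher with Men1 siRNA, as were 25.8% of all genes. Uqcrb, which also lies at cytochrome b, gave 2429.6 and 1731 with Men1 siRNA, against 2019 and 2702 with scramble siRNA, a change of -0.19 ± 0.36. Uqcrc1, a core protein on the matrix side, gave 4188 and 3464 with Men1 siRNA, against 2958 and 3987 with scramble siRNA, a change of 0.15 ± 0.34. Both overlapped between groups. Cyc1, the cytochrome c1 subunit, Uqcrc2, Uqcrh and Uqcr (now Uqcr11) had changes from -0.09 to 0.09. Uqcr10, a further subunit that the array lists under a clone name and the rule missed, had a change of -0.04. Cycs, the mobile carrier between complexes III and IV, gave 3708 and 2556 with Men1 siRNA, against 2472 and 3457 with scramble siRNA, a change of 0.07 ± 0.37, with each group spanning nearly the same range.

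Complex IV, cytochrome c oxidase, held the largest changes in both directions, and the members of its isoform pairs had unlike values. Its 20 genes had a median change of 0.30, 12 of them positive, beside an SD of 0.21 between replicates. In 7 genes the Men1 siRNA arrays lay above both scramble siRNA arrays and in 5 below, beside 25.8% and 21.7% of all genes. Without scramble siRNA replicate 1 the median was -0.09. The 12 widely expressed subunits had a median of 0.33, 9 positive. The 8 isoforms that are restricted to muscle, testis or lung, or raised in low oxygen, had a median of -0.09, 3 positive. Without scramble siRNA replicate 1 the widely expressed subunits had a median of 0.009, 6 positive, and the restricted isoforms one of -0.49, 3 positive. The medians were 0.56 and 0.29 without scramble siRNA replicate 2. Cox7b, a small subunit made in most tissues (target at chrX:103211097-103217291 on MM9), gave 2742 and 2979.6 with Men1 siRNA, against 1324 and 1118 with scramble siRNA. The groups lay well apart, with means of 2861 ± 168 for Men1 siRNA and 1221 ± 146 for scramble siRNA (SD, n = 2 each). Its log2 change of 1.23 ± 0.31 is 2.35-fold, at an unadjusted p of 0.00877 and a limma adjusted p of 0.202. With a prior that follows intensity the limma adjusted p was 0.0206. A second Cox7b target stayed near 100, at 87.7 and 107 with Men1 siRNA and 104 and 98.4 with scramble siRNA, a change of -0.06.

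The pairs of isoforms were then read side by side. Cox4i1, the main form of the largest nuclear-encoded subunit, gave 18294 and 16766 with Men1 siRNA, against 11922 and 15843 with scramble siRNA, a change of 0.35 ± 0.33. Its partner Cox4i2, the form of lung and low oxygen (target at chr2:152580829-152590769 on MM9), gave 59.2 and 112 with Men1 siRNA, against 229 and 167 with scramble siRNA. The groups of Cox4i2 did not overlap, at a change of -1.26 ± 0.43 (limma adjusted p = 0.296, unadjusted p = 0.0287), and 1 Men1 siRNA array was under 100, so the size is less certain. Ndufa4, now held to be a complex IV subunit, gave 4075 and 5198 with Men1 siRNA, against 3819 and 4864 with scramble siRNA, a change of 0.10 ± 0.34 with overlapping groups. Its paralogue Ndufa4l2, which is induced in low oxygen (target at chr10:126951994-126954210 on MM9), gave 153 and 110.3 with Men1 siRNA, against 253 and 281 with scramble siRNA. Its groups lay apart, at a change of -1.04 ± 0.34 (adjusted p = 0.279, unadjusted p = 0.0235). The sums of fibroblast markers and of immune and endothelial markers were lower on the same arrays, although single immune markers went both ways. The part of these markers in the values of Cox4i2 and Ndufa4l2 was not tested.

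The muscle and testis forms were dim. Cox6a1, the common form, gave 9697 and 10276 with Men1 siRNA, against 6937 and 9327 with scramble siRNA, a change of 0.31 ± 0.33. Cox6a2, the heart and skeletal muscle form (target at chr7:135349127-135349851 on MM9), gave 455 and 366 with Men1 siRNA, against 145 and 260.4 with scramble siRNA. Its groups did not overlap, at a change of 1.07 ± 0.40 (limma adjusted p = 0.329, unadjusted p = 0.0411). Cox7a2 gave 1732 and 1703 with Men1 siRNA, against 1088 and 1419 with scramble siRNA, a change of 0.47 ± 0.32. Its muscle form Cox7a1 gave 161 and 235 with Men1 siRNA, against 147 and 273 with scramble siRNA, and overlapped. Cox8a gave 16199 and 16395 with Men1 siRNA, against 11077 and 13226 with scramble siRNA, a change of 0.43 ± 0.31. The muscle form Cox8b read 236 and 33.9 with Men1 siRNA, against 44.8 and 42.9 with scramble siRNA, so that 1 array of 4 was above 100 and no fold is given. Muscle markers summed to 2487 and 3574 with Men1 siRNA, against 2910.2 and 3593 with scramble siRNA. Of the 20 measured, 9 were positive, 4 lay under 100 on all arrays and 0 passed the threshold, and their part in the value of Cox6a2 was not tested. Among the testis forms, Cox6b2 gave 194 and 133 with Men1 siRNA, against 229 and 352 with scramble siRNA, a change of -0.82 ± 0.39 without overlap. Its common partner Cox6b1 gave 3925 and 3301 with Men1 siRNA, against 2002 and 4179 with scramble siRNA, with overlapping groups. Cox8c gave 599 and 392 with Men1 siRNA, against 373 and 421 with scramble siRNA, and also overlapped. Cox7b2 was under 100 on all 4 arrays, between 26.6 and 42.8.

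**Figure D4:**
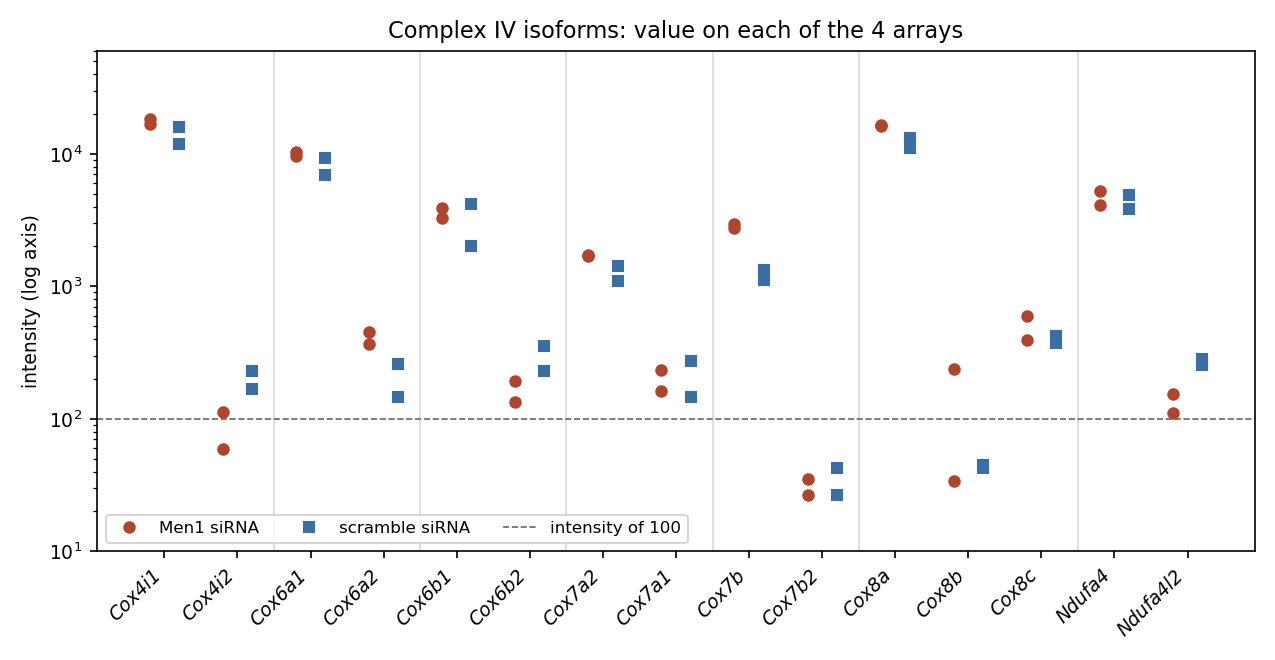
Intensity of complex IV isoforms on each array (log axis), with the Men1 siRNA arrays (circles) left of the scramble siRNA arrays (squares), grouped by subunit. Cox4i2 and Ndufa4l2 lie lower with Men1 siRNA, at 59.2 to 153, against 167 to 281 with scramble siRNA, while Cox4i1 is at 11922 or more on every array.

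The rest of complex IV also pointed both ways. Cox5b, which carries zinc, gave 21588 and 16969 with Men1 siRNA, against 11537 and 16247 with scramble siRNA, a change of 0.48 ± 0.35, and Cox5a had a change of 0.41 with overlapping groups. Cox7a2l, which joins complexes III and IV into supercomplexes, gave 2446 and 2791 with Men1 siRNA, against 4622 and 3641 with scramble siRNA, a change of -0.65 ± 0.32 (limma adjusted p = 0.432). Cox6c gave 2557 and 2386 with Men1 siRNA, against 2838 and 3307 with scramble siRNA, a change of -0.31. Neither of these overlapped between groups. Cox7c, another small subunit, had targets that disagreed over nearly the same span (chr13:86184420-86186382 on MM9). The slightly brighter one gave 3753 and 3590.3 with Men1 siRNA, against 3646 and 3909 with scramble siRNA, a change of -0.04. The other gave 3921 and 3879.9 with Men1 siRNA, against 2057 and 1877 with scramble siRNA, a change of 0.99 ± 0.32 without overlap (limma adjusted p = 0.29, unadjusted p = 0.0218).

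Such disagreement was measured for all members. In 23 member genes 2 or more targets reached 100 on all arrays. The gap between the changes of their targets had a median of 0.24, and in 6 genes the signs differed. Beside Cox7c, Atp5h and Uqcrh these were Ndufa3 (0.42 and -0.14), Atp5g1 (-0.24 and 0.19) and Ndufb2 (-0.21 and 0.21). In 5 the gap exceeded 0.5, with the widest gaps in Cox7c (1.03) and in Atp5h (0.77).

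**Figure D5:**
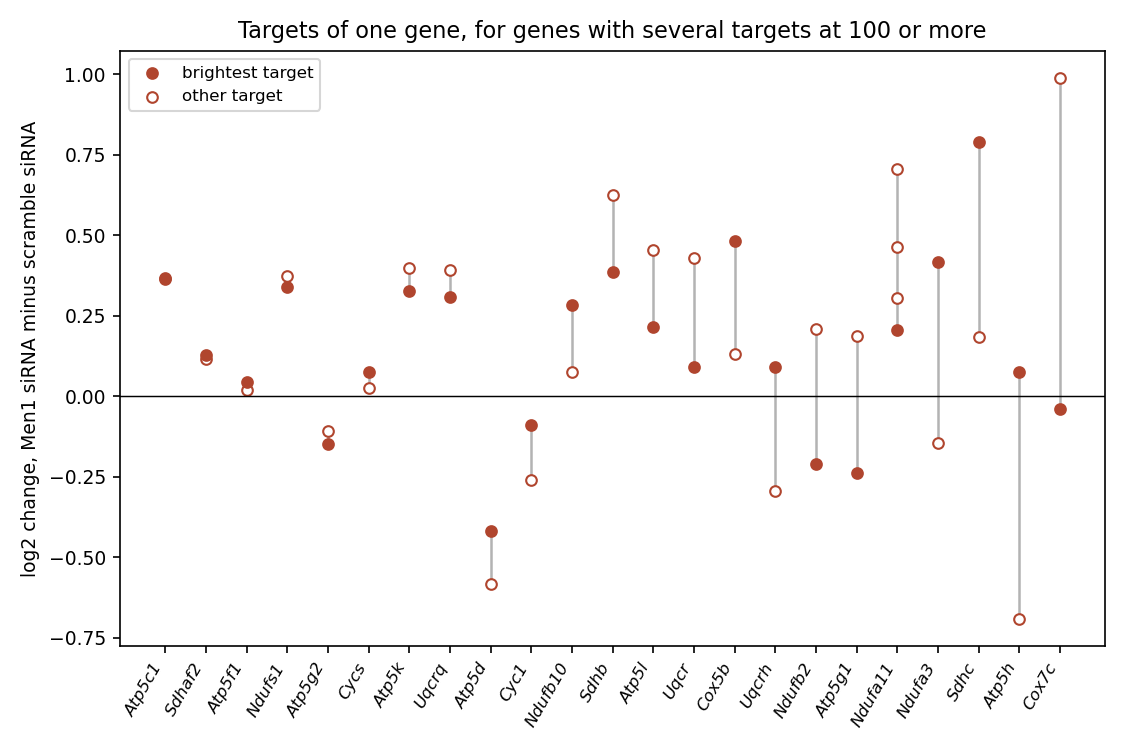
Log2 change (Men1 siRNA minus scramble siRNA) of each target, for the 23 member genes with several targets at 100 or more on all arrays, sorted by the gap between targets. The filled point is the brightest target of the gene, and Cox7c has the widest gap, 1.03.

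Complex V, the ATP synthase, had the smallest median change, 0.05 over 15 genes, 10 positive, beside an SD of 0.21 between replicates, and it was -0.01 without Men1 siRNA replicate 1. In 5 genes both Men1 siRNA arrays lay above both scramble siRNA arrays and in 1 below. Over all genes these shares were 25.8% and 21.7%. The 5 subunits of the catalytic F1 head had a median of 0.17, the 4 stalk subunits 0.06, and the 6 membrane subunits -0.03. In the same order the medians were 0.05, -0.19 and 0.05 without scramble siRNA replicate 1. In the head, Atp5e, the epsilon subunit, gave 3021 and 2544 with Men1 siRNA, against 2211 and 1731 with scramble siRNA, a change of 0.50 ± 0.33 (limma adjusted p = 0.537). Atp5c1, the gamma subunit of the rotor, gave 6193 and 6468 with Men1 siRNA, against 4055 and 5944 with scramble siRNA, a change of 0.37 ± 0.34, and its second target had a change of 0.36. Both genes were without overlap. Atp5d, the delta subunit, gave 9469 and 6099 with Men1 siRNA, against 10397 and 9917 with scramble siRNA, a change of -0.42 ± 0.36 (adjusted p = 0.636). Its groups also did not overlap, in the other direction, and its second target had a change of -0.58. The catalytic Atp5b, the brightest of all subunit genes at 37638 and 36141 with Men1 siRNA, against 30091 and 35726 with scramble siRNA, had a change of 0.17, and Atp5a1 one of -0.16.

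In the membrane part, the ring of c subunits is made from 3 genes that encode the same mature protein. Atp5g1 gave 1614 and 1577 with Men1 siRNA, against 2355 and 1503 with scramble siRNA. Atp5g2 gave 3691 and 5425 with Men1 siRNA, against 5552 and 4422 with scramble siRNA. Atp5g3 gave 7149 and 4833 with Men1 siRNA, against 4802 and 7134 with scramble siRNA. All 3 overlapped between groups, with changes of -0.24, -0.15 and 0.006, and the sign of the last turned under cyclic loess and quantile normalization. Atp5k, the e subunit, gave 4126 and 4048 with Men1 siRNA, against 3021 and 3507 with scramble siRNA, a change of 0.33 ± 0.31 without overlap. Atp5j2 and Atp5l had changes of -0.06 and 0.21. In the stalk, Atp5f1 (now Atp5pb), Atp5h, Atp5j and Atp5o had changes from 0.04 to 0.20. The second Atp5h target went the other way (chr11:115277009-115281231 on MM9), with 4390.1 and 4030 with Men1 siRNA, against 6056 and 7614 with scramble siRNA, a change of -0.69 ± 0.34 without overlap. The processed copy Atp5pb-ps had a change of 0.08 and may share probes with Atp5f1. Atp5md and Atp5mpl, subunits listed under other names, had changes of 0.41 and 0.31.

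The 4 name matches that are no subunit had changes of -0.08 for Cox4nb, 0.13 for Sdhaf2, 0.36 for Atp5s and 0.40 for Atp5sl, and in Atp5sl alone the groups did not overlap.

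Other genes of the pathway were read from lists, of which none had a member past the threshold in either direction. Assembly factors of the complexes had a median change of 0.26 over 41 measured genes, 28 of them positive, against 54.5% positive and a median of 0.06 over all genes. The medians of these lists were not read with an array left out, as those of the complexes were. Cox17, the copper chaperone of complex IV, gave 442 and 743 with Men1 siRNA, against 259.7 and 259.5 with scramble siRNA, a change of 1.14 ± 0.38 (limma adjusted p = 0.285). Timmdc1, an assembly factor of complex I, gave 360 and 694 with Men1 siRNA, against 143 and 261 with scramble siRNA, a change of 1.37 ± 0.49 (adjusted p = 0.31). Foxred1, another factor of complex I, had a change of 0.82. In each of these the groups did not overlap. The citric acid cycle and pyruvate dehydrogenase genes had a median of 0.01, with 9 of 18 positive. Suclg2, a subunit of succinyl-CoA ligase, gave 375 and 233 with Men1 siRNA, against 1022 and 782 with scramble siRNA, a change of -1.60 ± 0.38 (adjusted p = 0.184). Idh2, the mitochondrial isocitrate dehydrogenase that makes NADPH, had a change of -0.83 and Idh3g, of the NAD-linked enzyme, one of 0.85.

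The large subunit of the mitochondrial ribosome had a median of -0.01, with 23 of 49 genes positive, and Mrpl23 had the smallest p at a change of 0.97. Regulators of mitochondrial biogenesis had a median of -0.20, with 5 of 17 positive. Gabpb1, the beta subunit of the GABP factor named above, gave 924 and 599 with Men1 siRNA, against 1342 and 1383 with scramble siRNA, a change of -0.87 ± 0.36 (limma adjusted p = 0.356) without overlap. Gabpa, the DNA-binding subunit of the same factor, lay the other way, at 483 and 484 with Men1 siRNA, against 359 and 338 with scramble siRNA, a change of 0.47 ± 0.30 without overlap (adjusted p = 0.53). Polg, the mitochondrial DNA polymerase, had a change of -0.63, and Esrrg was under 100 on all arrays. Carriers and uncoupling proteins had a median of 0.02, with 6 of 11 positive. Among them Ucp2, an inner membrane carrier, gave 847 and 2002 with Men1 siRNA, against 10459 and 6672 with scramble siRNA, a change of -2.68 ± 0.52 (adjusted p = 0.127). Its groups lay far apart, although it did not pass the threshold.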

How the data were processed

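RNA of 4 single-colour arrays was analysed. The deposited intensities are linear values for each target that RMA (the robust multi-array average) had produced, per the file headers. The series text names an Agilent array, but the labelling protocol and the files are of NimbleGen format. Background correction is not given in the sources used here. Target coordinates are on MM9. The authors' value table holds the same values for all 108 member targets in it, with the scramble siRNA columns exchanged, and was an alternative.

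Intensities were converted to log2 without a pseudocount. The target with the highest mean stood for its gene, and symbols were updated through RefSeq gene IDs. limma 3.58.1 (R 4.3.3, lmFit and eBayes) was fitted over all genes with group as the only term, and two-sided p-values were adjusted by Benjamini-Hochberg with a threshold of 0.05. The fit was tested on simulated data, where it returned the sizes put in but made no call at sizes like those of the subunit genes. Named genes were Men1, per complex the 4 subunit genes with the smallest p, all of complex II, isoforms with their partners, Cycs, the c subunit genes, genes whose targets differed in sign with one at an unadjusted p under 0.05, and up to 3 genes of each pathway list. Other members are named after their values were seen. A result that this rule would name is not reported here. The NRF1 word was shortened by its last base after the longer form had been searched. The longer form stood in a lower share of the subunit windows and of all windows. The members and lists were chosen with earlier results of these data known. Python 3.11.15 was used with pandas 2.3.3 and numpy 2.4.6 for the tables and motifs, and with matplotlib 3.10.9 for the plots. The number of arrays limits the precision.

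Whether the replicate numbers pair the arrays is not given in the labels. The differences of replicate 1 minus replicate 2 correlated at -0.17 between groups across genes, or 0.17 with the scramble siRNA order of the value table. The image names inside both Men1 siRNA files carry the number 2. Replicate numbers here are those of the files and serve as names only, and no block was used in the model. Alternatives were the replicate block, each array left out, 3 normalizations, the value table, dropping dim genes, averaging targets, other priors, a pseudocount of 32 and other placings of isoforms.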

Additional observations from a re-analysis of the deposited data

How the results depend on the processing

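The count of member genes past the threshold was 0 under every alternative except the prior that follows intensity, where it was 1 (Cox7b, adjusted p = 0.0206). All 86 were tested, except 84 with the filter on dim genes and 83 in the value table. At an unadjusted p under 0.05 the limma model had 4. The count over all genes was 94, against 422 in the value table, 359 with the filter on dim genes, 711 with the prior that follows intensity, 252 with a pseudocount of 32, and 0 with any array left out, where 1 group rests on a lone array assumed to vary like the other group. Fitted alone, 150 targets passed, against 94 with 1 target per gene.

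With the replicate block 69 genes and 0 members passed, and no median of a complex or call of a member changed. Blocks that cross the replicate numbers, added after seeing the data, match the scramble siRNA order of the value table. They gave 0 genes and 0 members in limma, with 3980 genes at an unadjusted p under 0.05. The 4 fibroblast and 2 adipocyte markers named above then missed the threshold, at adjusted p from 0.0524 to 0.0656.

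With 1 array left out, members with non-overlapping groups numbered 30 to 53 higher and 12 to 30 lower, against 26 and 10 with all arrays; the rule is easier to meet with fewer arrays. The median change of complex I then ranged from -0.040 to 0.26, of complex II from 0.11 to 0.42, of complex III from -0.054 to 0.25, of complex IV from -0.085 to 0.46 and of complex V from -0.014 to 0.29. The low end for complexes I to IV came without scramble siRNA replicate 1, and the high end for complexes II to V without scramble siRNA replicate 2. The median of complex V was -0.011 under cyclic loess. Without the restricted isoforms the median of complex IV was 0.33.

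Of 527 values of single genes under an alternative, 495 kept their direction and side of the threshold, 1 passed it and 31 turned sign. With 1 array left out, Atp5g1 ranged from -0.56 to 0.087, Atp5g2 from -0.42 to 0.13, Atp5g3 from -0.28 to 0.29, Cox6b1 from -0.22 to 0.85, Cox7a1 from -0.49 to 0.40, Cox7b2 from -0.49 to 0.20, Cox7c from -0.091 to 0.0098 and Cox8b from -0.37 to 2.43. Cox8c ranged from -0.016 to 0.59, Cycs from -0.19 to 0.34, Ndufa13 from -0.15 to 0.15, Ndufa4 from -0.081 to 0.27, Ndufs6 from -0.73 to 0.078, Sdha from -0.71 to 0.0063, Uqcrb from -0.43 to 0.057 and Uqcrc1 from -0.066 to 0.36. The mean of targets gave 0.47 for Cox7c, 0.54 for Ndufa13 and 0.47 for Ndufs6, whose dimmer targets had positive changes. It lowered Cox7b from 1.23 to 0.58 and turned Atp5h from 0.08 to -0.31, since their dimmer targets had negative changes. Atp5g3 was -0.056 under cyclic loess and -0.017 under quantile normalization, Cox7a1 0.024 under quantile normalization and Ndufa13 0.018 under median centring.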
